A study of Caenorhabditis elegans with 2 samples.

Results

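The 8 genes cct-1 to cct-8 encode the subunits of the chaperonin CCT (also TRiC) in the nematode Caenorhabditis elegans, and they were taken by name from the Ensembl release 115 annotation, in which they are 8 of 19973 protein-coding genes on the nuclear chromosomes. RefSeq names their products T-complex protein 1 subunits alpha (cct-1), beta (cct-2), gamma (cct-3), delta (cct-4), epsilon (cct-5), zeta (cct-6), eta (cct-7) and theta (cct-8). The genes were described by where chromatin immunoprecipitation and sequencing (ChIP-seq) placed the zinc finger protein ZTF-4 around them in whole L1 larvae of pooled sexes. The animals were of strain OP322, with the genotype unc-119(ed3) III; wgIs322, and carry an insertion targeting ztf-4, which the labels describe as eGFP-ztf-4. There was 1 group with 2 biological replicates, both with the unc-119(ed3) allele, and no untagged or untreated group was analysed here. The insertion is not described further in the sources used here, so how closely the tagged protein follows the untagged one cannot be read from these files.

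CCT is an ATP-driven folding machine of the cytosol, built as a pair of stacked rings in which each ring holds all 8 subunits side by side. New polypeptides enter the cavity, the subunits close over them, and folded protein is released. Actin and tubulin are its best known clients, and the prefoldin complex hands unfolded actin and tubulin chains to it. The subunits are paralogs that arose from a common ancestor and are needed together in 1 particle, although in the worm their genes lie apart. Of these genes, cct-1, cct-2, cct-3 and cct-4 are on chromosome II, cct-5 and cct-6 on III, cct-8 on IV and cct-7 on V.

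ZTF-4 peaks stood upstream of cct-1, cct-8, cct-7 and cct-6, and a peak lay inside cct-5. The genes cct-4, cct-2 and cct-3 had no peak in the authors' thresholded list. That list holds 1898 regions retained by an irreproducible discovery rate (IDR) step, and they are called IDR peaks here. Such a step rests on how well the ranks of regions agree between replicates over the lists. The relaxed lists behind it, which include background, held 23044 regions for the pooled replicates, 27643 for replicate 1 and 27140 for replicate 2. The signal of a region is the height that the authors' peak caller gave it. IDR peaks ran from 49.6 to 904, and the highest pooled region outside that list had 49.5. The IDR peaks are thus the strongest pooled regions, and a single one need not rank alike in both replicates. Of the 1898, 1767 had a summit within 100 bp in both replicates. At the 4 upstream peaks the pooled signal lay near the sum of both replicates, so pooled signals are not on the scale of a single replicate. Signals of the replicates are set against each other below with no adjustment for depth. No read counts are in the lists, so the depth is unknown and no counting error can be attached to a signal. The spread between the replicates is the only error available.

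The sequences at the summits of the 4 upstream peaks are shown first, because each lies between a CCT gene and a neighbour transcribed away from it. Each is 161 bases of the WBcel235 assembly, with 80 bases to either side of the summit, read 5′ to 3′ on the strand of the CCT gene. Capitals mark every match, on either strand, to 1 of the words searched below. The cct-1 window is II:8185130-8185290 (plus strand), that of cct-8 is IV:1094273-1094433 (minus strand), that of cct-7 is V:1871837-1871997 (plus strand) and that of cct-6 is III:5855855-5856015 (minus strand).
cct-1: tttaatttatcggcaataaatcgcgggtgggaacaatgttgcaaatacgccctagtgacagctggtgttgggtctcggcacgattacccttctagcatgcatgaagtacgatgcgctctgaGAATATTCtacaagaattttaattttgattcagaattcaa
cct-8: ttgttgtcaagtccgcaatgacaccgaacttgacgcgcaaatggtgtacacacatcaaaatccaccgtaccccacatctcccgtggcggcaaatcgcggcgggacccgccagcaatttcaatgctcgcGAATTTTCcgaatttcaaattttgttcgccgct
cct-7: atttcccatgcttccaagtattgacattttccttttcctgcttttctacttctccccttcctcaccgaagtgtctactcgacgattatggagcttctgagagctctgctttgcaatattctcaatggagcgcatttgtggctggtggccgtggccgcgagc
cct-6: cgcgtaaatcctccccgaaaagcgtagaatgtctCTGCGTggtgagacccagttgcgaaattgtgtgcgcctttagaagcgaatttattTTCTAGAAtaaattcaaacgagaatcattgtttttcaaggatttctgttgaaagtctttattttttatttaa

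Further windows show how the other genes differ. The first is the cct-4 region below the threshold, at II:8283439-8283599 (plus strand). The second is the peak inside intron 2 of cct-5, at III:4505054-4505214 (minus strand). For cct-2 and cct-3, which have no region near their start, the windows are centred 250 bp upstream of it, at II:8927411-8927571 and II:2233210-2233370 (both plus strand).
cct-4: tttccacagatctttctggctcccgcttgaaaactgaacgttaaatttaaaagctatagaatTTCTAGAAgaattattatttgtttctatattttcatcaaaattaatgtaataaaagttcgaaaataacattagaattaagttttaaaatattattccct
cct-5: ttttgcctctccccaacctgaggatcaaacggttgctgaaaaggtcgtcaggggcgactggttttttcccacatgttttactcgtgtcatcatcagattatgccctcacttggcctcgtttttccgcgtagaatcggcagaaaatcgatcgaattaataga
cct-2: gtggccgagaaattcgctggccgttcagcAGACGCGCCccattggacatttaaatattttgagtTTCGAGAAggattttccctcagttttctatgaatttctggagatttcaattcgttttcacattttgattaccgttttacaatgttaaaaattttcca
cct-3: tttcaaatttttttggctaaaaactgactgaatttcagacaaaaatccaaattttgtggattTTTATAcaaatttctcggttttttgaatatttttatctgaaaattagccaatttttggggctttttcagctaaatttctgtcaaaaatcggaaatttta

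From 2000 bp upstream of the annotated 5' end to the end of the gene, 5 of the 8 CCT genes held an IDR summit (62.5%, exact Clopper-Pearson 95% interval 24.5 to 91.5), against 9.59% of all protein-coding genes. In a promoter window reaching 1000 bp upstream and 200 bp into the gene from its 5' end the count was 4 of 8 (50%, 15.7 to 84.3), against 6.07% of all protein-coding genes. The same 4 genes, cct-1, cct-6, cct-7 and cct-8, had a promoter summit among the 1898 strongest regions of replicate 1, where the share of all genes was 5.53%, and among the 1898 strongest of replicate 2, where it was 6.06%. The intervals treat the 8 genes as independent draws, which they are not, since they are the whole family. They show only how coarse a share over 8 genes is and do not serve as a test. The genes were looked at as a family with earlier results of these data known, so these shares describe them and no test was made.

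Counted over the relaxed pooled list, the family looked less unlike other genes. There, 7 of the 8 genes held a region between 2000 bp upstream and the gene end, but so did 55.5% of all protein-coding genes. In the promoter window it was 5 of 8, against 32.6%, the fifth gene being cct-4. In all, the 8 genes held 5 IDR peaks, 22 pooled regions, 23 regions of replicate 1 and 32 of replicate 2. Of the 23 regions of replicate 1, 10 (43.5%) had a summit of replicate 2 within 100 bp, against 27.3% of all regions of replicate 1. Of the 32 regions of replicate 2, 10 (31.2%) had a summit of replicate 1 that near, against 27.8% of all. Most of the weaker regions around these genes therefore appeared in 1 replicate and not in the other.

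**Figure D1:**
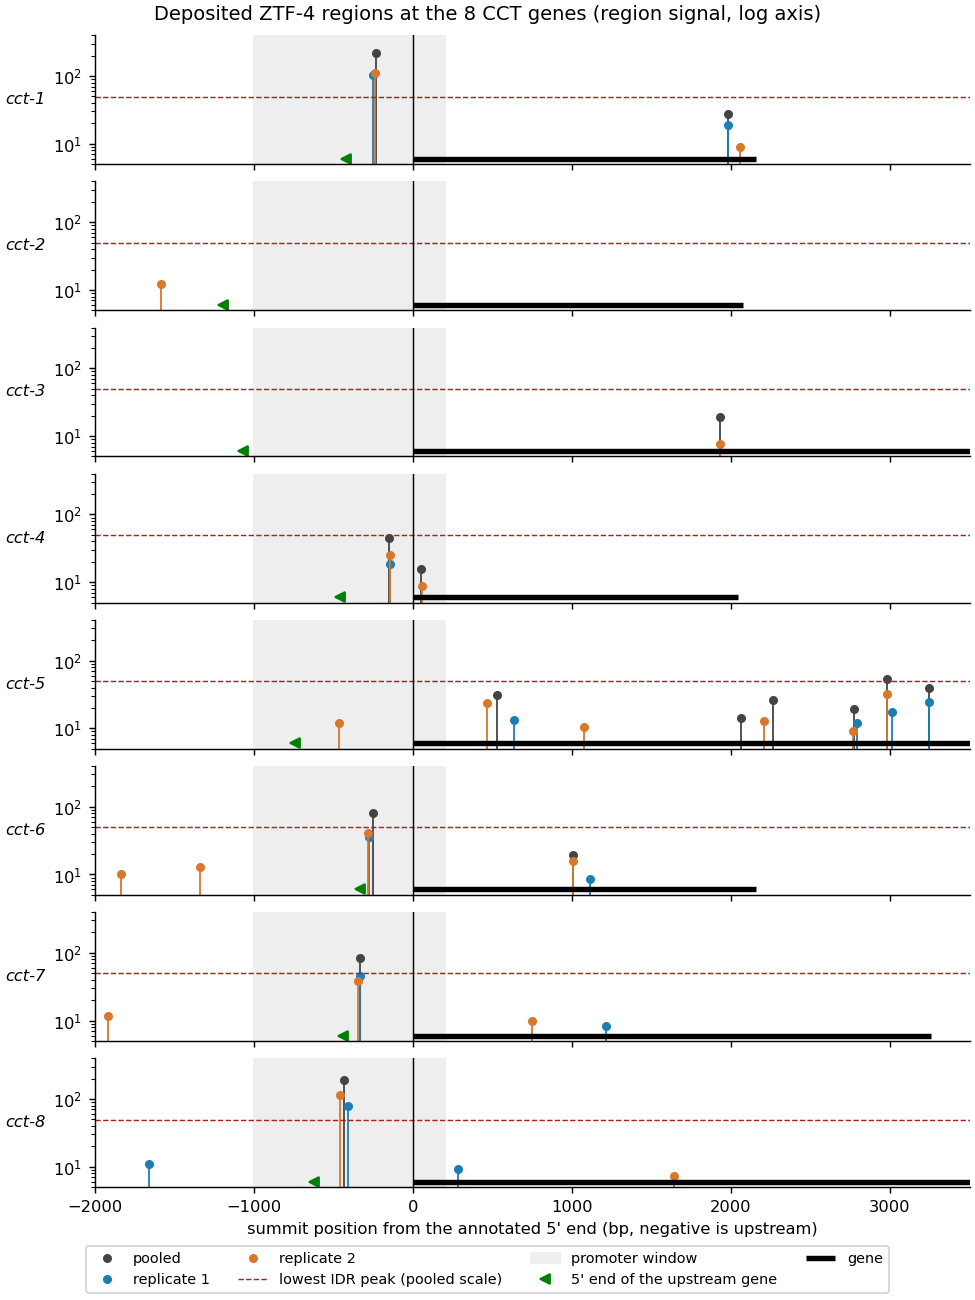
Regions of the pooled list and of each replicate around the 5' end of each CCT gene, by summit position (bp) and signal (log axis). The dashed line is the lowest IDR peak on the pooled scale (49.6), and it does not apply to single replicates. Tall regions of all lists coincide upstream of cct-1 (pooled 216), cct-8 (189), cct-7 (83.2) and cct-6 (81.9), and for cct-4 they end at 44.7. The upstream sequence of cct-2 and cct-3 has no region in its promoter window.

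The alpha subunit gene cct-1 carried the strongest peak of the family. Its signal was 103 in replicate 1, 111 in replicate 2 and 216 in the pooled list, at ranks 111, 83 and 89. The replicates thus differed by a ratio of 1.08, and 4.64% of the IDR peaks were stronger. The peak covers II:8185114-8185267 and its summit is at −233 bp, in intergenic sequence. The summits of the separate replicates lay 13 bp apart. At 154 bp the region is narrow, since the median IDR peak is 350 bp wide and 108 IDR peaks (5.69%) are under 200 bp. Those narrow peaks are mostly strong ones, with a median signal of 192.

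The theta subunit gene cct-8 came next. Its peak at IV:1094287-1094449 (163 bp, also narrow) had a signal of 78.3 in replicate 1, 114 in replicate 2 and 189 in the pooled list, at ranks 215, 78 and 122. Replicate 2 was higher by a ratio of 1.45, or 0.54 on the log2 scale. Over the 1767 IDR peaks found in both replicates that log2 ratio had quartiles of −0.37 and 0.34 around a median of −0.01, so that cct-8 lay outside the middle of the distribution but well within its range of −2.55 to 2.55. The summit is at −433 bp, the farthest upstream of the 4, and the replicate summits were 51 bp apart, which was also the widest gap of the 4.

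The eta gene cct-7 and the zeta gene cct-6 had peaks of ordinary strength. At cct-7 the signal was 45.7 in replicate 1, 37.9 in replicate 2 and 83.2 pooled, with ranks 647, 936 and 727, for a region at V:1871742-1872091 with its summit at −329 bp. At cct-6 it was 35.9, 40.9 and 81.9, with ranks 1062, 793 and 748, for a region at III:5855760-5856109 with its summit at −248 bp. Replicate 1 was the higher for cct-7 and replicate 2 for cct-6, by log2 ratios of −0.27 and 0.19, so the order of these genes differed between replicates and they cannot be ranked against each other. In both replicates and in the pooled list cct-1 and cct-8 stood above cct-7 and cct-6, whereas the order of cct-1 and cct-8 was itself reversed in replicate 2 (111 against 114). Both weaker regions have the full width of 350 bp, and in all 1734 IDR peaks of that width the deposited summit is simply the midpoint. Their replicate summits lay 15 bp apart for cct-7 and 10 bp apart for cct-6.

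**Figure D2:**
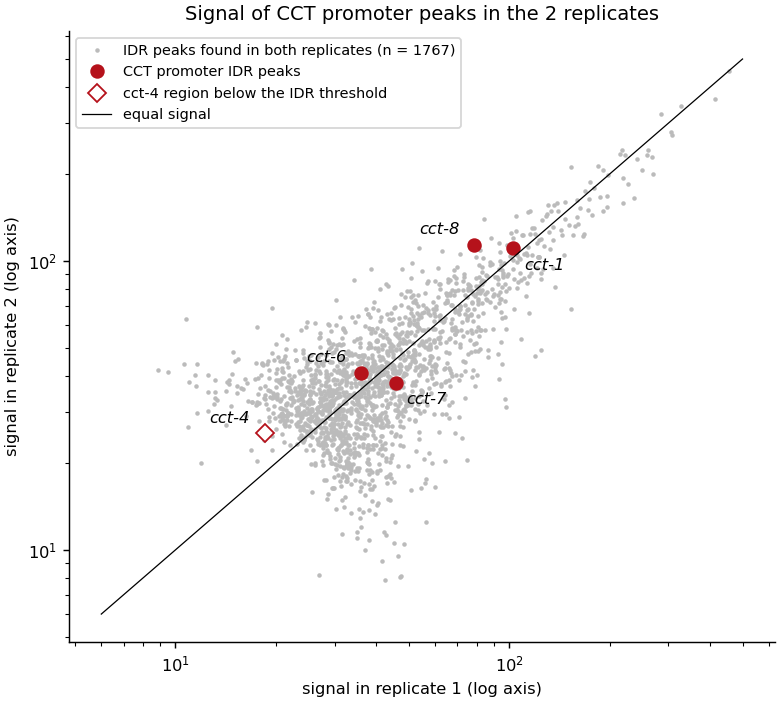
Signal in replicate 1 (x) against replicate 2 (y), both on log axes, for the 1767 IDR peaks found in both replicates (grey) and for the CCT promoter peaks (red). All CCT points lie near the line of equal signal. The cct-8 point stands highest above it (78.3 against 114), and the open cct-4 point (18.5 and 25.3) sits at the weak edge of the cloud.

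Over the genes with a promoter summit, the median of the highest signals was 136 for the 4 CCT genes and 78.3 for all 1213 protein-coding genes, and the median summit position was −288.5 bp against −246 bp. With the peak in cct-5 included, the medians of the 5 genes with an IDR summit were 83.2 and −248 bp, against 77.3 and −260 bp for 1915 genes. Among IDR promoter peaks, those nearest to cct-1 in height were at ain-1 and T28B8.1 just above it (both 218), and the shared peak of lin-53 and nra-2 (216) and that of bag-1 (214) just below. Likeness here means only adjacent signal among the 936 IDR peaks in promoter windows.

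All 4 upstream peaks also lay in the promoter window of a second gene. Their divergent neighbours start less than 1000 bp away, so any summit in the gap falls in both windows. The sharing thus follows from the gene layout and is no separate result. It was seen for 287 (30.7%) of the 936 IDR peaks in promoter windows, but these include genes of every layout, so the shares are not alike. The partner of cct-1 is mig-5, a Dishevelled protein of Wnt signalling, whose 5' end is 187 bp from the summit while that of cct-1 is 233 bp away. The partner of cct-6 is alh-9, named as an aldehyde dehydrogenase, at 83 bp against 248 bp. The partner of cct-7 is T10B5.4, which RefSeq calls an aralkylamine N-acetyltransferase, at 110 bp against 329 bp. The partner of cct-8 is Y55F3AR.2, which RefSeq calls a thioredoxin domain-containing protein, at 188 bp against 433 bp.

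Each of these 4 summits was therefore nearer to the annotated start of the neighbour than to that of the CCT gene, in the IDR list and in each replicate alone. Expressed along the gap, the summit lay 55.6% of the way from the CCT start to the partner's start for cct-1, 69.8% for cct-8, 75.1% for cct-7 and 75.2% for cct-6. When each summit was given to the gene of nearest 5' end, only cct-5 kept an IDR peak, and this share of 1 in 8 genes lies near the 6.32% of all protein-coding genes under that rule. Many worm messages receive a spliced leader in place of their own first bases, so transcription may begin upstream of an annotated 5' end. A peak between divergent genes cannot be told apart, in these files, as belonging to one or the other. Short non-coding RNA genes lie in some of these gaps, namely T10B5.13, whose edge is 63 bp from the summit upstream of cct-7, and Y55F3AR.4, whose edge is 144 bp from the summit upstream of cct-8.

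The divergent arrangement was common to the whole family. All 8 CCT genes have, as nearest protein-coding gene upstream, a gene transcribed in the opposite direction, an arrangement found for 45.4% of protein-coding genes. The gap between the starts was 330 bp for cct-6, 419 bp for cct-1, 438 bp for cct-7, 458 bp for cct-4 and 620 bp for cct-8. It was 740 bp for cct-5, 1069 bp for cct-3 and 1189 bp for cct-2, which are the 3 genes without any pooled region in the promoter window. Genome-wide, 15.2% of the 1840 genes with a divergent gap under 500 bp had an IDR promoter summit, 12.1% of the 1663 with a gap of 500 bp to under 1000 bp, 5.48% of the 5568 with a longer one and 3.93% of the 10902 genes without a divergent upstream neighbour. The CCT genes with a summit numbered 3 of 4 in the first class (cct-1, cct-6 and cct-7, not cct-4), 1 of 2 in the second (cct-8, not cct-5) and 0 of 2 in the third. These gap classes were set after the values had been seen. A gap under 1000 bp also places a summit in both windows more easily, so the classes are not independent of how promoters were defined.

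**Figure D3:**
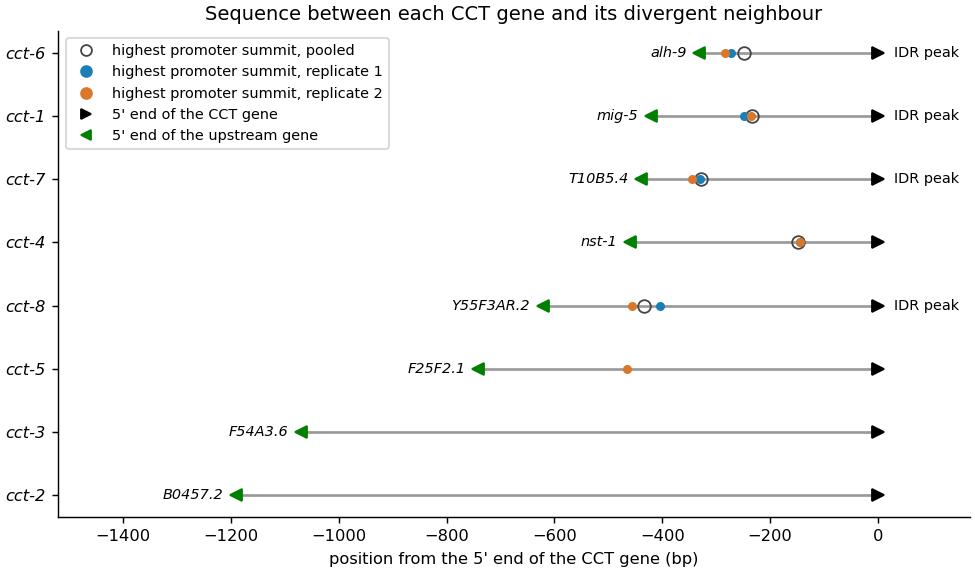
Sequence between the 5' end of each CCT gene (black, at 0) and that of its divergent upstream neighbour (green), sorted by gap length in bp. Circles and points mark the highest summit in the promoter window in the pooled list and in each replicate. The summits of cct-6, cct-1, cct-7 and cct-8 lie nearer to the green end, that of cct-4 lies nearer to the black end (148 bp against 311 bp), and the gaps of cct-3 and cct-2 are empty.

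Downstream, 5 of the 8 genes have the next gene on the same strand within 500 bp, against 18% of all protein-coding genes. In C. elegans, such tightly spaced genes on 1 strand are often transcribed together as an operon, although spacing alone does not show it. The genes following are mrpl-50, a mitochondrial ribosomal protein, 25 bp after cct-2, csn-4, a subunit of the COP9 signalosome, 94 bp after cct-8, F54A3.2 at 102 bp after cct-3, the transcription factor gene atf-7 at 142 bp after cct-5, and the RNA helicase gene ddx-23 at 260 bp after cct-6. Genes with this spacing were found both among those with an upstream IDR peak (cct-6, cct-8) and among those without (cct-2, cct-3, cct-5).

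The delta gene cct-4 had a region that recurred at the same place but missed the threshold. Its signal was 18.5 in replicate 1 at rank 4150, 25.3 in replicate 2 at rank 2014 and 44.7 in the pooled list at rank 2271, against 49.6 for the weakest IDR peak. The summits fell at −145, −144 and −148 bp, so the position agreed closely while the height stayed low in both replicates. The authors' −log10 q was 2.96 for the pooled region. In contrast to the 4 upstream peaks, this summit was nearer to the CCT gene (148 bp) than to its divergent partner nst-1, a nucleostemin homologue, at 311 bp. A second region of lower signal (15.7 pooled, 8.71 in replicate 2) followed at 51 bp downstream of the cct-4 start, inside the coding sequence, and replicate 1 had none there. The nearest IDR summit of any kind was 45424 bp from the cct-4 start.

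The epsilon gene cct-5 showed a different picture, with many weak regions along the gene instead of 1 upstream. The IDR peak at III:4504959-4505308 lay 2980 bp downstream of the 5' end, in intron 2, with a signal of 52.8 (rank 1705 of 1898, −log10 q 3.06), close above the threshold. The matching region had a signal of 17.4 in replicate 1, at rank 4745, and 31.7 in replicate 2, at rank 1330. In replicate 1 the highest region of the gene was another, at 3246 bp with a signal of 24.5, and replicate 2 had no summit within 100 bp of it. The cct-5 peak was thus among the strongest 1898 regions in replicate 2 but not in replicate 1, and without replicate 2 the count of CCT genes with a summit was 4 in place of 5. Upstream of cct-5 the only region in the promoter window was 1 of signal 11.8 in replicate 2, at −465 bp.

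Along the 8927 bp of cct-5 the pooled list placed 11 regions (1.23 per kb), of which 9 lay in intron 2, an intron of 6134 bp. Replicate 1 had 8 summits in that intron and replicate 2 had 9, but often at other places. Only the pooled regions at 5835, 4143, 2980 and 2776 bp had a summit within 100 bp in both replicates. That at 2062 bp had none in either, and the rest had one in 1 replicate only. Over all pooled regions, 33% were matched in both, so the number along cct-5 rests mostly on regions that did not recur. Among the 2829 protein-coding genes between 5 and 15 kb long the median was 1 region (0.146 per kb), 41 genes (1.45%) had 10 or more, and 99.5% had fewer per kb than cct-5. The other long members did not share this, with 2 pooled regions along the 10000 bp of cct-3 and 1 along the 6813 bp of cct-8. Of intron 2, 24.9% is masked as repeats in the RefSeq assembly, against 35.7% of the nuclear genome, and its GC content is 36.8% against 35.4%. The choice of cct-5 for this description was made after its values had been seen.

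**Figure D4:**
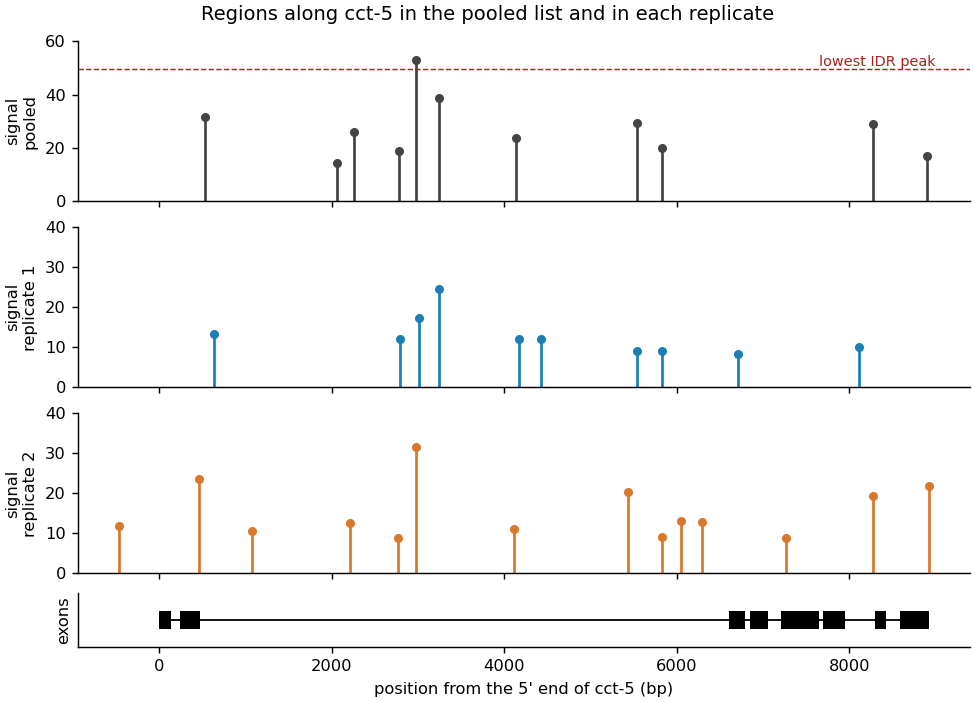
Regions along cct-5 by summit position from the 5' end (bp) and signal, for the pooled list and each replicate, above the exons (boxes). Only the pooled region at 2980 bp passes the dashed line of the lowest IDR peak (49.6). The tallest region is at 3246 bp in replicate 1 (24.5) and at 2983 bp in replicate 2 (31.7), and the regions spread over intron 2.

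The beta gene cct-2 and the gamma gene cct-3 were nearly bare. For cct-2 no region of the pooled list or of replicate 1 lay between 2000 bp upstream and the gene end, and replicate 2 gave a lone region of signal 12.2 at −1583 bp, inside an intron of the neighbour B0457.2. The nearest IDR summit was 6231 bp downstream of the cct-2 start, in the promoter window of T21B10.3, with a signal of 56.3. For cct-3 the pooled list held regions at 1929 bp (18.8, in a coding exon) and 6729 bp (17.3, in an intron), and single replicates gave 5 regions from 7.63 to 9.01, close to the floors of their lists (7.81 and 7.23). Only the region at 1929 bp in replicate 2 (7.65) matched a pooled one. The nearest IDR summit to cct-3 was 331564 bp away, at usp-39, so this subunit gene sits in a wide stretch with no IDR peak. The lists cannot tell absent binding from binding too weak for the caller at an unknown depth.

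Weak regions were also found in the 3' UTRs of cct-1, cct-8, cct-5 and cct-3, thus at members with and without an upstream IDR peak. At cct-1 a pooled region of signal 27.5 had its summit at 1984 bp, in the 3' UTR, with 19.1 in replicate 1 and 8.88 in replicate 2. At cct-8 a pooled region of 15.9 had its summit at 6540 bp, also in the 3' UTR and in the promoter window of the following gene csn-4, with 8.28 in replicate 1 and none within 100 bp in replicate 2. At cct-5 a pooled region of 17 had its summit at 8901 bp, also in the promoter windows of C07G2.5 and atf-7. Its signal was 21.9 in replicate 2 (rank 2641), and replicate 1 had no summit within 100 bp. At cct-3 the 3' UTR held a region of 9.01 in replicate 1, also in the promoter window of the following gene F54A3.2. Elsewhere in that 3' UTR replicate 2 had a region of 7.63, and the pooled list had none in it. The pooled ranks, 5695 for cct-1, 18745 for cct-8 and 16376 for cct-5, put these regions far below the threshold.

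The windows printed above differ in base composition. IDR summits are rich in G and C, with a median of 46.5% in 101 bp (quartiles 41.6 and 51.5), against 34.7% for windows 300 bp to each side and 33.7% for windows centred 250 bp upstream of all protein-coding genes. The summit of cct-8 stood at 57.4%, with 91.4% of IDR windows lower, while cct-5 had 49.5%, cct-1 and cct-7 had 47.5% and cct-6 had 38.6%. The cct-4 window stood at 18.8%, and 0% of IDR windows and 0.464% of pooled windows were lower. The upstream windows of cct-2 and cct-3 had 35.6% and 25.7%.

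**Figure D5:**
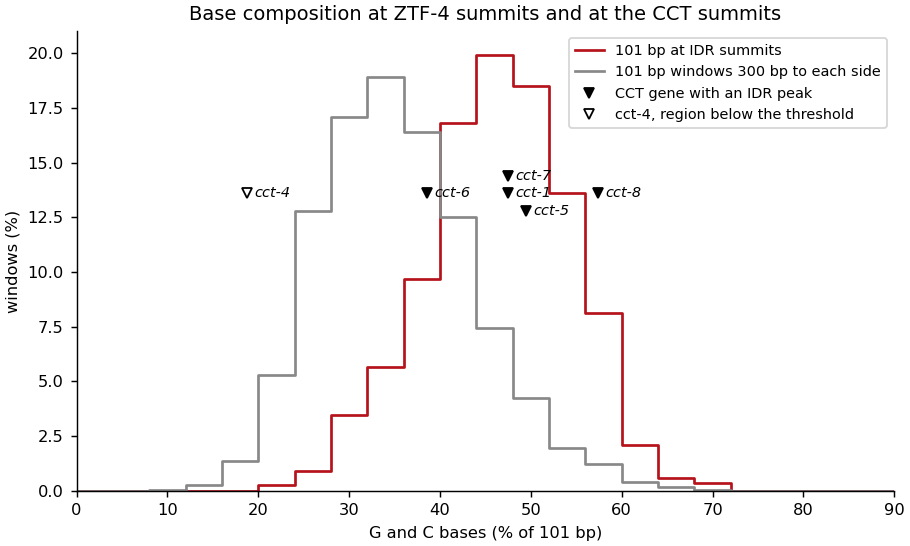
Share of 101 bp windows (%) by G and C content (%), at IDR summits (red) and 300 bp to each side (grey), in classes of 4 percentage points. Triangles mark the CCT windows, and their height has no meaning. The CCT summits with an IDR peak run from 38.6% (cct-6) to 57.4% (cct-8) within the red distribution, and cct-4 (18.8%) lies outside it.

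Few of the words searched were present in the CCT windows. Most were uncommon at IDR summits in general, so this scarcity is no result about the family. There were 6 fixed words, each searched on both strands within 50 bp of the summit. They were the E-box CACGTG, the word TGATAA bound by GATA factors, the core promoter word TATAAA, the paired heat shock units GAANNTTC and TTCNNGAA, and the repeat word GAGAGA. The E-box was in 7.59% of all IDR windows against 1.79% of the side windows, and GAGAGA in 28.7% against 6.66%, but none of the 6 CCT windows with a region held either. The GATA word (5.64% of IDR windows, 10.1% of side windows) and TATAAA (4.79% and 11.3%) were likewise absent there. TATAAA was found in the upstream window of cct-3. GAANNTTC was in the cct-1 window (4.06% of IDR windows, 6.66% of side windows, 7.11% of upstream windows), and at cct-8 a match straddled the edge of the 101 bp. TTCNNGAA was in those of cct-4, cct-6 and cct-2 (4.11%, 6.01% and 6.6%). Both heat shock words were thus less frequent at IDR summits than beside them. None of these shares was adjusted for the higher G and C content at IDR summits, and its part in them was not tested.

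Of 573 words of 6 bases present in at least 5% of IDR windows, with the CCT peaks left out, the 5 with the highest ratio over the side windows were GCGCGC (9.48), ACGCAG (9.11), GACGCA (8.35), AGACGC (8) and CGCGCC (6.86). The middle 3 of these overlap one another as parts of a longer word, as the first does with the last. The ratios were not adjusted for base composition, and IDR windows are richer in G and C (median 46.5% against 34.7%). How much of each ratio goes with composition was not tested. ACGCAG was in 17.3% of all IDR windows, 1.9% of side windows and 2.68% of upstream windows. For GACGCA these shares were 17.8%, 2.13% and 2.79%, and for AGACGC they were 15.4%, 1.92% and 2.44%. For GCGCGC they were 6.74%, 0.711% and 1.27%, and for CGCGCC they were 7.96%, 1.16% and 1.77%. Among the CCT windows with a region, ACGCAG was in that of cct-6, where the printed strand reads CTGCGT, and the other 4 words were in none. CGCGCC was in the cct-2 window, which had no region. A match is a description of letters, and its absence says nothing of whether ZTF-4 can lie there.

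Some genes that work with CCT, and some of other chaperones, also carried peaks. Over 6 lists of partners, clients and other chaperones, 14 of 45 genes (31.1%) had an IDR promoter summit, against 6.07% of all protein-coding genes. Most of the 14 came from the lists of other chaperones and their partners, with 6 of 10 cytosolic and 2 of 2 mitochondrial genes. The 31.1% is therefore not the share of CCT partners and clients alone. In prefoldin, which delivers chains to CCT, it was 2 of 6, with pfd-1 at 148 (65.4 in replicate 1 and 84.5 in replicate 2), shared with F01G4.6, and pfd-6 at 73.6 (27.1 and 56.2), shared with rde-2. Of the actins it was 2 of 5, act-4 at 79.6 and act-2 at 60.7. Of the tubulins it was 2 of 16 (12.5%), with alpha-tubulin tba-2 at 152 and gamma-tubulin tbg-1 at 68.9, the latter in a window shared with rpac-19. The tubulin folding cofactors, which act after CCT, had 0 of 6. By the rough rule of 3 divided by the number of genes, this allows a share of up to 50%. That limit is not an exact interval like those given above.

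The mitochondrial chaperonin genes hsp-60 and Y22D7AL.10 share 1 peak of signal 275 (156 in replicate 1 and 123 in replicate 2), so their 2 of 2 rests on a single region. Of the cytosolic Hsp70 chaperones and the partners of Hsp70 and Hsp90, 6 of 10 had a summit. Not all of the 10 are chaperones, since hsf-1 and chn-1 are among them. That list lacks the Hsp90 gene hsp-90 itself, which was looked up after the values had been seen. It had no IDR summit in its promoter window, and the nearest one, of signal 285, lay 851 bp downstream of its annotated 5' end. With hsp-90 counted, the 6 lists gave 14 of 46 genes (30.4%) and the cytosolic list 6 of 11 (54.5%). The strongest promoter peaks of the cytosolic list were hsp-110 at 293, bag-1 at 214, dnj-13 at 213 and hsp-1 at 197. Those of hsp-110 and dnj-13 lay in windows shared with rpn-3 and F54D5.9, respectively. The cct-1 peak (216) thus stood between those of hsp-110 and bag-1, and the cct-8 peak (189) just below that of hsp-1. Peaks shared between genes count once for each gene in these shares, and the lists were drawn up with earlier results of these data known.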

How the data were processed

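Whole L1 larvae were profiled by ChIP-seq in 2 biological replicates. Per the records deposited with the files, regions were called against a control in each replicate and on the pooled alignments, and the IDR peaks were derived from those 3 lists, in assembly ce11. The aligner, peak caller and cutoff, not given in the sources used here, could each move a signal. The authors deposited a signal and a −log10 q value for each region. Both are used within a list, except that signals of the 2 replicates were also set against each other, with no adjustment for depth.

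A summit is column 2 plus column 10, printed from base 1. The same assembly (WBcel235) gave the Ensembl release 115 genes, the RefSeq product names and the sequences, credited to RefSeq. Regions beyond the reference chromosome ends numbered 0. Summits within 100 bp matched. The lists in ce10 were not used. Python 3.11.15, pandas 2.3.3, NumPy 2.4.6, SciPy 1.17.1 and matplotlib 3.10.9 were used, and the window rules were checked on simulated data.

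The members, gene lists and words were chosen with earlier results of these data known, so shares over genes are given beside those of all protein-coding genes, with no test. Named are all members, genes sharing their promoter summits, up to 4 genes per list with the strongest promoter peaks, and the 2 promoter peaks directly above and below cct-1 in signal. The 2 list names daf-21 and hsp-10 matched no gene by symbol and were left out. A list holding pdl-1 alone (0 of 1) was dropped after the values had been seen, since RefSeq calls its product a phosphodiesterase delta-like protein, and with it the 7 lists gave 14 of 46 genes.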

Additional observations from a re-analysis of the deposited data

How the results depend on the processing

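The count of CCT genes with an IDR summit from 2000 bp upstream to the gene end (5) was 4 without replicate 2 (9.09% of all protein-coding genes), 5 without replicate 1 (9.56%), 4 with the stronger 949 IDR peaks (5.26%), 5 from 1000 bp upstream (7.81%) and 7 with the relaxed pooled list (55.5%). It was 1 with each summit given to the nearest 5' end, close to the 6.32% of all genes. The count in the promoter window (4) stayed 4 without replicate 2 (5.53% of all genes) and without replicate 1 (6.06%). It was also 4 with the stronger 949 IDR peaks (3.41%), from 2000 bp upstream to 500 bp downstream (8.17%) and with transcript starts (6.6%). The relaxed pooled list gave 5, but there 32.6% of all genes were called. From 300 bp upstream to 100 bp downstream the count was 2, at cct-1 and cct-6 (3.6%). With shared promoter peaks left out it was 0, since all 4 are shared. With 3.15% of all genes called there, a count of 0 in 8 is no result about the family. The count of shared promoter peaks (4) was 2 in that narrow window and 4 otherwise. The median highest signal (83.2) was 40.9 to 62 with single replicates, which are not on the pooled scale, and without replicate 2 it rests on 4 genes, since cct-5 is then not among the strongest regions. The median position (−248 bp) was −301.5 to −283 bp with single replicates, and the same with transcript starts. No depth is known, so weak or absent regions at cct-2, cct-3 and cct-4 are not shown to lack ZTF-4.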
